A study of Mus musculus with 13 samples.

Results

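Day 7 was compared with day 4 after total body irradiation (TBI) in the CD45- cells of the mouse thymus, an interval in which the irradiated thymus begins to refill. The members of the comparison were 6 bulk RNA-seq libraries of 13 in the count table, 3 from day 4 and 3 from day 7, taken by the day after irradiation that their labels give. All were from wild type C57BL/6 mice of 2 months, given a sublethal dose of TBI, and each library was made from cells of the thymus labelled as CD45- stroma. Cells carrying CD45 had been depleted on magnetic beads, red cells had been lysed, and the CD45- cells had been sorted before RNA was extracted. The table also holds 4 libraries from unirradiated mice given PBS (steady state) and 3 from day 1, which entered the fit. The column names of the steady-state libraries carry day 1, day 4, day 7 and day 7, so they were not 1 time point, and they were pooled here as 1 reference level for both days. No source used here says that the 3 libraries of a day were separate animals, so the p-values measure the spread between these libraries, which may in part be technical.

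The stroma of the thymus is the scaffold on which T cells are made. Cortical and medullary thymic epithelial cells (TECs), fibroblasts and endothelial cells supply the chemokines, Notch ligands and interleukin 7 on which thymocytes depend, and epithelial cells display peptides on MHC molecules to select them. Thymocytes are highly sensitive to radiation and most die within days, whereas stromal cells largely survive, and the thymus then refills from surviving and incoming precursors. A thymocyte first rearranges its T cell receptor beta chain, signals through the pre-T cell receptor, divides many times and becomes positive for both CD4 and CD8.

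The depth of the 6 libraries ran from 15721866 counts in day 4 replicate 1 to 52056896 in day 4 replicate 2, and the other 4 held 37054467 to 51609165. Of 53379 genes 19984 passed the filter on low counts. Levels are given as CPM, counts relative to the depth of the library after scaling by the trimmed mean of M values (TMM), and always in the order of replicates 1, 2 and 3. The markers fixed for each cell type were checked against the label. Fibroblast genes were abundant, with Dcn, a small matrix proteoglycan, at 10201, 14421 and 12322 CPM at day 4 and 12842, 7764 and 9542 CPM at day 7. Ptprc, which encodes CD45 itself and should be low after such a sort, was at 4.07, 4.37 and 4.54 CPM at day 4 and at 21.6, 606 and 224 CPM at day 7, so at day 7 the RNA of the sorted fraction held transcripts of haematopoietic cells, most of all in replicate 2. The libraries of day 7 were thus uneven, and this unevenness bears on most of the results below. Column names carry a short tag of unstated meaning; 1 element of it is shared by all 3 libraries of day 7 and no other, so whatever it marks and the day cannot be told apart.

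By edgeR's quasi-likelihood test, 553 genes were higher at day 7 than at day 4 (2.77% of those tested) and 226 were lower (1.13%), at a Benjamini-Hochberg adjusted p of 0.05 or less. The called changes were unequal in size. A gene with a larger SE must change by more to be called, so the medians of called genes depend in part on the SE. The median log2 fold change was 4.16 among the genes called higher and -2.06 among those called lower, against 0.11 over all genes tested. Of the genes called higher, 25 had no count in any library of day 4. Scaling on fibroblast and collagen genes in place of TMM moved the median of all genes to -0.05 and called 320 genes higher and 6 lower. The falls were no smaller under that scaling, with medians of -1.64 in place of -1.47 for the pan-epithelial list and -1.81 in place of -1.71 for MHC class II, so it was the calls and not the sizes that were lost. With only days 4 and 7 in the fit the balance turned, to 94 higher and 300 lower. The list medians then stayed close, at 6.20 for the pre-T cell receptor list, 4.16 for mitosis and -1.48 for the pan-epithelial list, but their calls became 11 of 20, 1 of 25 and 11 of 20, against 20, 24 and 7 with all libraries. Single libraries mattered even more. The total of 779 became 15 without day 4 replicate 2, 20 without day 4 replicate 3, 142 without day 7 replicate 2, 244 without day 7 replicate 3, 455 without day 4 replicate 1 and 1507 without day 7 replicate 1. Called in all 6 of these fits were 15 genes, all higher at day 7. Among them were Cd8a and Cd8b1 of T cells, Hba-a1, Hba-a2, Alas2, Slc4a1, Trim10, Slc25a37 and Car2 of red cells, and Apol11b and Gm32051. In the fit on the 5 libraries that share a tag beginning with k3, which are day 4 replicates 2 and 3, day 7 replicates 1 and 2 and 1 of steady state, no gene was called, although the medians of the thymocyte, mitosis, red cell, sterol, epithelial and MHC class II lists kept their direction.

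**Figure D1:**
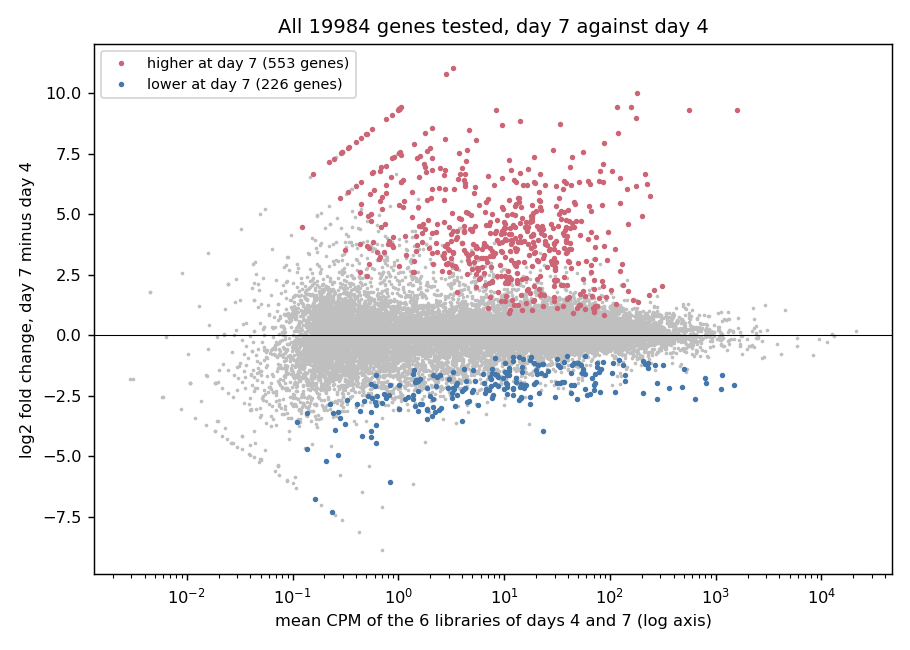
Each point is 1 of the 19984 genes tested, with its mean CPM over the 6 libraries of days 4 and 7 on the horizontal log axis and its log2 fold change, day 7 minus day 4, on the vertical axis. Red points are the 553 genes called higher and blue points the 226 called lower by edgeR. The red points reach far higher above 0 than the blue ones reach below it at the same level, and the diagonal streaks at the left are genes with few or no counts on 1 of the days.

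The genes of early T cell development moved most. All 20 genes of the list for the pre-T cell receptor, receptor rearrangement and the coreceptors rose (2.77% of all genes tested rose). Their median log2 fold change was 6.20, and in all 20 every library of day 7 was above every library of day 4 (12.2% of all genes tested were so arranged). Summed over the list, the level was 35.9, 35.1 and 54.9 CPM at day 4 and 258, 5923 and 2562 CPM at day 7, against 284 to 922 CPM over the 4 steady-state libraries. Replicate 1 of day 7 was thus just below the lowest steady-state library, while replicates 2 and 3 were above the highest. In bulk RNA, more cells of a type and more RNA per cell cannot be told apart.

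Rag1, a subunit of the enzyme that cuts antigen receptor genes for rearrangement (ENSMUSG00000061311, GRCm38 chr2:101638282-101649501, minus strand), was at 0.71, 0.316 and 1.15 CPM at day 4 and 20, 438 and 249 CPM at day 7. Its 3 values of day 7 differed more than 20-fold among themselves and were nevertheless all above day 4, and the log2 fold change was 8.34 ± 1.12 (SE; adjusted p = 0.0056, edgeR). Rag2, its partner, rose by 7.64 on the log2 scale, and Dntt, the terminal transferase that adds bases at receptor joints, by 6.16. Ptcra, the invariant chain of the pre-T cell receptor, stood at 0.387, 0.316 and 0.759 CPM on day 4 and 1.85, 37.9 and 16.8 CPM on day 7, a log2 fold change of 5.23 ± 0.95 (adjusted p = 0.013, edgeR).

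The CD8 chains rose further than the other members. Cd8b1, the beta chain of CD8 (ENSMUSG00000053044, GRCm38 chr6:71322788-71337494, plus strand), went from 0.0645, 0.263 and 0.574 CPM to 35.2, 712 and 329 CPM, a log2 fold change of 10.02 ± 1.13 (adjusted p = 0.0011, edgeR). Cd8a, the alpha chain, went from 0.129, 0.404 and 0.37 CPM to 21.6, 476 and 199.7 CPM, or 9.44 ± 1.07 on the log2 scale (adjusted p = 0.0011). Both were called in all 6 fits that left out 1 library. Cd4 was at 0.194, 0.808 and 0.944 CPM and then at 13.9, 364 and 144 CPM, a rise of 7.95 on the log2 scale. In each coreceptor gene day 7 replicate 2 was highest and replicate 1 lowest, the order seen over the list as a whole.

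The signalling genes beneath the receptor rose as well. Cd3e, Cd3d and Cd3g, the CD3 chains that carry the signal inward, rose by 5.40, 5.41 and 5.13 on the log2 scale. Lck, the kinase that phosphorylates them, was at 7.49, 7.17 and 11.6 CPM and then 38.6, 981 and 403 CPM (5.76 ± 0.93). Zap70, the kinase recruited next, rose by 5.66, the adaptors Lat and Lcp2 by 6.25 and 4.43, and Themis, required for positive selection, by 6.35. The smallest rise among the 20 was that of Cd247, the zeta chain, at 3.42, and 60.3% of its exon bases overlap another gene, so its count is uncertain. Without day 4 replicate 2 only 2 of the 20 were called, and without day 4 replicate 3 only 3. With day 7 replicate 1 as the only library of its day, 3 were called and the median was 2.46; in that fit the other groups supply the spread, and the lone library is assumed to vary as they do.

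Among T-lineage transcription factors, 7 of 20 rose (2.77% of all genes tested rose) and none fell, with a median log2 fold change of 1.44. Among the 7 were Bcl11b (6.39), which commits precursors to the T lineage, Satb1 (6.38), a chromatin organiser of thymocytes, Tcf7 (6.26) and Lef1 (6.04), the paired TCF factors, and Ikzf1 (5.15) and Ikzf3 (3.21), Ikaros factors of lymphoid cells. Tcf7 was at 5.55, 4.69 and 7.09 CPM on day 4 and 34.4, 931 and 360.1 CPM on day 7. Notch1 and Gata3 did not pass the threshold. Notch1 was at 93.4, 44.2 and 35.7 CPM and then 39.9, 72.2 and 87.7 CPM. Gata3 was at 7.29, 6.02 and 8.9 CPM and then 7.28, 58.8 and 36 CPM (adjusted p = 0.082, edgeR). The number called was 0 without day 4 replicate 2 or without replicate 3, and 4 without day 7 replicate 2.

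Of 16 genes of later thymocyte stages 3 rose (2.77% of all genes tested rose), with a median of 1.55. Ccr9, the receptor for the thymic chemokine Ccl25, went from 1.36, 1.63 and 1.31 CPM to 17.4, 328 and 134 CPM (6.79 ± 0.94; adjusted p = 0.006, edgeR), although 21.5% of its exon bases overlap another gene. Cd69, induced by receptor signalling, rose by 3.90. Genes of the exit from the thymus did not pass the threshold, with Ccr7 at 4.84, 4.14 and 7.03 CPM and then 1.48, 9.24 and 3.2 CPM, and S1pr1, which endothelial cells share, at 179.9, 207 and 295 CPM and then 129, 150.2 and 101 CPM. Foxp3, which defines regulatory T cells, was under 1 CPM in all 6 libraries. Of the 3 calls, 0 remained without day 4 replicate 2 or without replicate 3, and 1 without day 7 replicate 2, whereas 7 genes were called without day 7 replicate 1.

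In the list for gamma-delta T cells, the other lineage made in the thymus, 4 of 10 rose (2.77% of all genes tested rose). The median was 2.39. Trdc, the constant region of the delta chain, was at 0.387, 1.18 and 1.52 CPM and then at 2.91, 70.8 and 34.8 CPM (5.07 ± 0.91; adjusted p = 0.013, edgeR). The gamma chain constant regions Tcrg-C2 and Tcrg-C4 rose by 3.91 and 4.18, but in both the lowest library of day 7, replicate 1, did not lie above the range of day 4. Sox13, Maf and Zbtb16, factors of gamma-delta cells that stroma also expresses, had log2 fold changes of -0.07, -0.39 and -0.39, none past the threshold. No member was called without day 4 replicate 2 or without replicate 3, 1 was without day 4 replicate 1, day 7 replicate 2 or day 7 replicate 3, and 6 were without day 7 replicate 1.

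Genes shared by all haematopoietic cells followed the thymocyte genes. Of 12, 4 rose (2.77% of all genes tested rose). These were Ptprc (6.03 ± 1.00), Coro1a (4.93 ± 0.86), an actin regulator of leukocytes, Was (3.96), the Wiskott-Aldrich actin regulator, and Cd48 (3.61), a surface protein of leukocytes. The list summed to 310.1, 361 and 404 CPM at day 4 and 329, 3263 and 1470.2 CPM at day 7. Replicate 1 of day 7 lay within the range of day 4, and only replicates 2 and 3 were above it. The 4 calls became 0 without day 4 replicate 2 or replicate 3, 2 without day 4 replicate 1, day 7 replicate 2 or day 7 replicate 3, and 9 without day 7 replicate 1.

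**Figure D2:**
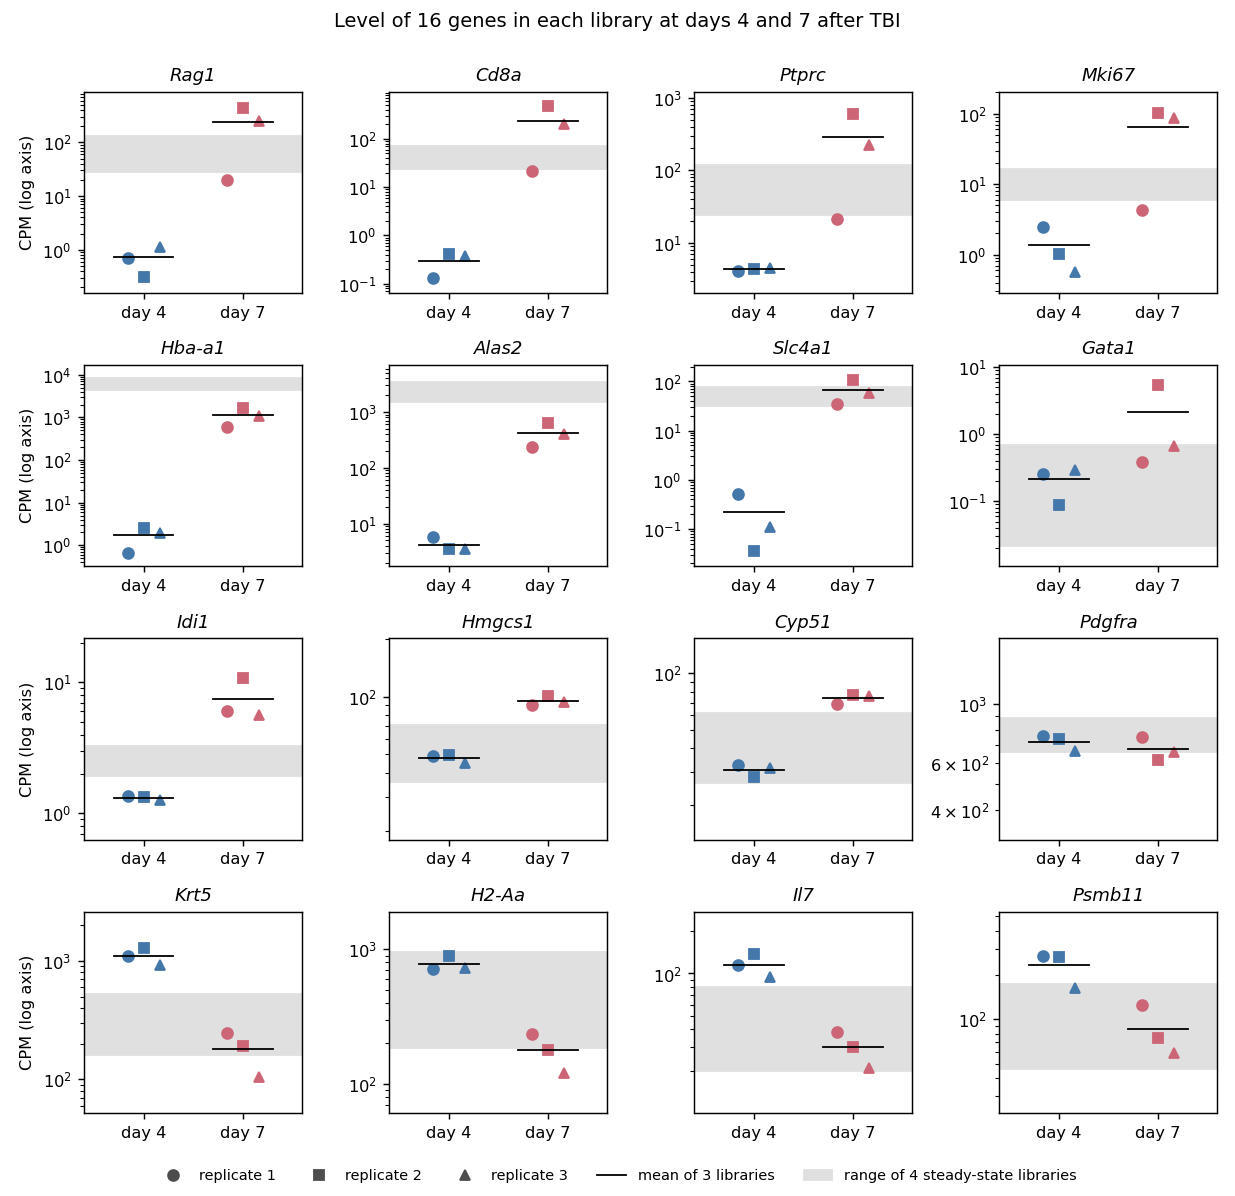
The level of 16 genes is plotted in CPM on log axes for the 3 libraries of day 4 (blue) and of day 7 (red), with a bar at the mean and a grey band for the range of the 4 steady-state libraries. In Rag1, Cd8a, Ptprc and Mki67 replicate 1 of day 7 sits well below replicates 2 and 3, whereas the 3 values of Hmgcs1, at 90.2, 100.3 and 93.7 CPM, lie close together. Hba-a1 and Alas2 are above day 4 and below the steady-state band in all 3 libraries of day 7.

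Red cells formed the second group of genes that rose. Erythroid cells carry no CD45 once they mature, and the lysis of red cells bears on how many remain. An antibody to an erythroid surface marker was among those listed for sorting, and no source used here says whether it gated these libraries. Of 17 tested genes of erythroid regulation and maturation 9 rose (2.77% of all genes tested rose), none fell, and the median was 3.11. The list summed to 159.7, 106 and 132 CPM at day 4 and 1179, 3143 and 1959 CPM at day 7, against 6497 to 12506 CPM at steady state. All 3 libraries of day 7 were thus above day 4 and below every steady-state library.

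Hba-a1, a gene for the alpha chain of haemoglobin (ENSMUSG00000069919, GRCm38 chr11:32283511-32284465, plus strand), was at 0.645, 2.55 and 1.94 CPM on day 4 and 605, 1679.5 and 1092 CPM on day 7. Its log2 fold change was 9.31 ± 0.83 (adjusted p = 0.0002, edgeR), and at steady state it stood at 6541 ± 1820.0 CPM (SD, n = 4). Hba-a2, a nearly identical copy, rose by 8.96 ± 0.81, and because the RefSeq promoters of the pair (250 bases before the start and 50 after) share an unbroken run of 297 of 300 bases and their transcripts are also alike, the split of reads between them is uncertain. Alas2, the first and limiting enzyme of heme synthesis in red cells (ENSMUSG00000025270, GRCm38 chrX:150547375-150570638, plus strand), went from 5.74, 3.44 and 3.46 CPM to 233, 624 and 409.6 CPM (6.66 ± 0.64; adjusted p = 0.00026, edgeR), and 15.5% of its exon bases overlap another gene. Unlike in the thymocyte genes, the values of day 7 in these genes lay within 3-fold of each other.

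The other late markers did likewise. Trim10, a ubiquitin ligase of terminal red cell differentiation, was at 0.129, 0 and 0.0555 CPM and then 12.4, 31.3 and 13.4 CPM (8.71 ± 0.79). Car2, a carbonic anhydrase, rose by 3.82 ± 0.46, and Bpgm, which makes the 2,3-bisphosphoglycerate that loosens oxygen from haemoglobin, by 3.11 ± 0.50. Each of these values except that of Bpgm was called in all 6 fits without 1 library, as were Slc25a37 and Slc4a1 below.

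Early markers of the red lineage had another pattern. Gata1, the master transcription factor of the lineage, was at 0.258, 0.0878 and 0.296 CPM on day 4 and 0.39, 5.39 and 0.678 CPM on day 7. Klf1, its partner at globin genes, was at 0.323, 0.193 and 0.352 CPM and then 0.554, 10.1 and 0.488 CPM, and Car1, a carbonic anhydrase of early erythroid cells, at 0.0645, 0.105 and 0.0555 CPM and then 0.0205, 8.89 and 0.0271 CPM. In all 3 genes replicate 2 of day 7 stood far above the other libraries, at or above 5 CPM, and replicates 1 and 3 were under 1 CPM, and none passed the threshold (adjusted p = 0.14, 0.077 and 0.14, edgeR). Epor, the erythropoietin receptor, and Tal1, a factor of blood progenitors, had log2 fold changes of 0.32 and 0.19. Of the genes without a call in all 6 fits, Nfe2 (2.63), a factor of globin expression, Tspan33 (2.60) and Mkrn1 (1.45) also rose. The 9 calls became 5 without day 4 replicate 2 or replicate 3 and 6 or more without any other library.

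Among genes of the red cell membrane and its cytoskeleton, 8 of 16 tested rose (2.77% of all genes tested rose). The median log2 fold change of the list was 2.77. Slc4a1, the anion exchanger band 3, was at 0.516, 0.0351 and 0.111 CPM at day 4 and 35.3, 108 and 59.1 CPM at day 7 (8.75 ± 0.94; adjusted p = 0.00075, edgeR). The band 4.1 and 4.2 genes Epb41 and Epb42 rose by 2.94 and 2.61, and the blood group proteins Rhag, Rhd and Kel by 6.84, 4.75 and 5.29. Gypc, at -0.03, and Aqp1, a water channel of endothelium, at -0.50, did not pass the threshold. The list held 2 calls without day 4 replicate 2 or replicate 3 and 5 without day 7 replicate 2.

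Of 15 genes for heme synthesis and iron uptake 3 rose (2.77% of all genes tested rose). Besides Alas2 these were Slc25a37, the mitochondrial iron importer mitoferrin-1, at 4.9, 3.44 and 3.3 CPM and then 30.9, 84.8 and 57.3 CPM (3.90 ± 0.44; adjusted p = 0.001, edgeR), and Tfrc, the transferrin receptor that dividing cells also use, at 4.52, 4.48 and 4.2 CPM and then 6.13, 70.2 and 19.4 CPM (2.86 ± 0.70). The call of Tfrc rested on 1 of the 6 fits without 1 library. The heme enzymes Urod (-0.03), Uros (0.24) and Alad (-0.29) did not pass, and the median of the list was 0.42.

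Promoter sequence was examined for the 7 erythroid genes named above that were called in every fit without 1 library, a set chosen after their values were seen. The RefSeq table of promoters (GRCm38.p6) held 4 of them, Hba-a1, Hba-a2, Alas2 and Trim10. In the 250 bases before the start, on either strand, a GATAA core, the type of site to which Gata1 binds, was found in all 4, and so was CCACCC, the type of site to which Klf1 binds. Of all 32851 promoters in the table, 22.6% hold the former, 28.1% the latter and 5.0% both. The promoters of Hba-a1 and Hba-a2 share a run of 297 of 300 bases, so their matches are not separate cases. These are matches of letters and not shown to be bound. The sequences of 3 are shown because these genes were among those called in every fit without 1 library; capitals mark both motifs, written on the strand of the gene, so that a match on the other strand reads TTATC or GGGTGG.
Hba-a1, chr11:32283422-32283671, plus strand: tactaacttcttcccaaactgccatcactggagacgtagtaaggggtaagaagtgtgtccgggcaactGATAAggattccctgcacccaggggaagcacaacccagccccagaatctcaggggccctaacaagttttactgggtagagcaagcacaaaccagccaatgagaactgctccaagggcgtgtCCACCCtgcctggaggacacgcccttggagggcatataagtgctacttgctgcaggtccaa
Alas2, chrX:150547167-150547416, plus strand: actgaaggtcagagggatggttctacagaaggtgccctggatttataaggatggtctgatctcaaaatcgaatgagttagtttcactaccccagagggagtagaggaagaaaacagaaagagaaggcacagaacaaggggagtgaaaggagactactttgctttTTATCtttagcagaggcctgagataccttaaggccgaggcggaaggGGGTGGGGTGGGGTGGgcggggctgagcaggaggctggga
Trim10, chr17:36869324-36869573, plus strand: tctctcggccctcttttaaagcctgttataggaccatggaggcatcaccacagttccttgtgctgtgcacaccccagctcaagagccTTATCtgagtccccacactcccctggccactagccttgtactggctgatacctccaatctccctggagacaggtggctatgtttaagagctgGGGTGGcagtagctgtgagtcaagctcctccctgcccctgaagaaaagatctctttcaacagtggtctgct
The GATAA match lay 182 bases before the RefSeq start in Hba-a1, 86 in Alas2 and 163 in Trim10. The CCACCC match nearest that start lay 61, 30 and 71 bases before it. In Alas2 there were 3 CCACCC matches, which overlap. In Hba-a1 and Alas2 the RefSeq start lies inside the gene coordinates given above. Their CCACCC matches therefore fall within those coordinates, and their GATAA matches lie before them.

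Genes of cell division rose with the thymocyte genes. Of 25 mitosis genes 24 rose (2.77% of all genes tested rose), with a median of 4.16. In all 25 every library of day 7 was above every library of day 4 (12.2% of all genes tested). Mki67, the proliferation antigen, was at 2.45, 1.04 and 0.574 CPM and then 4.29, 103 and 87.6 CPM (5.66 ± 1.00; adjusted p = 0.013, edgeR). Top2a, the topoisomerase that separates chromosomes, was at 7.62, 4.36 and 4.7 CPM and then 17.2, 486 and 221 CPM (5.45 ± 0.92). Kinetochore and spindle genes moved alike, with Cenpe at 6.19, Cenpf at 5.61, Kif11 at 5.32 and Bub1 at 4.92. The 1 gene not called was Cdk1, the kinase that starts mitosis, at 8.2, 7.5 and 9.61 CPM and then 11.4, 79.9 and 46.7 CPM (adjusted p = 0.053). Summed levels of the list were 105, 70.3 and 84.1 CPM and then 192, 2725 and 1473 CPM, and they ranked the libraries of day 7 as the thymocyte list did. No mitosis gene was called without day 4 replicate 2 or replicate 3, 10 were without day 7 replicate 2 and 12 without day 7 replicate 3. With only days 4 and 7 in the fit 1 was called, and none was once a score of the thymocyte genes entered it. All 20 genes of the score were higher in every library of day 7 than of day 4. The fit with the score therefore cannot fully separate it from the day. In what type of cell these transcripts lay was not tested.

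DNA replication genes changed by less and were not as low at day 4. Of 24, 10 rose (2.77% of all genes tested rose), none fell, and the median was 2.09. Rrm2, the inducible subunit of ribonucleotide reductase, was at 9.42, 8.66 and 10.5 CPM and then 19.6, 349 and 179.7 CPM (4.26 ± 0.77; adjusted p = 0.013, edgeR). Uhrf1, which maintains DNA methylation behind the fork, rose by 4.06, and Mcm5, Mcm2 and Mcm6 of the replicative helicase by 2.59, 2.28 and 2.06. Mcm3, Mcm4 and Mcm7 had log2 fold changes of 1.66, 1.07 and 1.61 and were not called. In replicate 1 of day 7 the list summed to 611 CPM, near the 496, 444 and 509.6 CPM of day 4. The count of 10 fell to 0 without day 4 replicate 2, day 4 replicate 3 or day 7 replicate 2 and to 4 without day 4 replicate 1 or day 7 replicate 3, it was 21 without day 7 replicate 1, and it was 0 with only days 4 and 7 in the fit.

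Genes of sterol synthesis rose in part and by less. In cells short of cholesterol the factor SREBP2 (gene Srebf2) switches on the enzymes of the mevalonate and sterol pathway. Of 13 genes 5 rose (2.77% of all genes tested rose), none fell, and the median was 0.98. In 11 of the 13 every library of day 7 was above every library of day 4 (12.2% of all genes tested). The summed level was 522, 447 and 449 CPM at day 4 and 811, 1014 and 916 CPM at day 7, with 439 to 603 CPM at steady state. The 3 libraries of day 7 ranked as they did for the thymocyte list, with replicate 1 lowest and replicate 2 highest, over a narrower range.

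Idi1, the isomerase that makes the activated isoprene unit (ENSMUSG00000058258, GRCm38 chr13:8885501-8892451, plus strand), was at 1.36, 1.33 and 1.26 CPM and then 6.09, 10.8 and 5.67 CPM, a log2 fold change of 2.52 ± 0.37 (adjusted p = 0.008, edgeR). Hmgcs1, at the head of the pathway, was at 49.3, 49.6 and 45.1 CPM and then 90.2, 100.3 and 93.7 CPM (0.98 ± 0.24; adjusted p = 0.042, edgeR). Cyp51, which demethylates lanosterol, was at 32.7, 28.1 and 31.4 CPM and then 68.8, 76.5 and 76.3 CPM (1.26 ± 0.30). In Hmgcs1 and Cyp51 the values within a day were close to one another, with replicate 1 the lowest of day 7 in both, whereas in Idi1 replicate 2 of day 7 stood above the others. Srebf2 itself (0.80 ± 0.21, adjusted p = 0.056) and Sqle (0.81 ± 0.26, adjusted p = 0.11) were not called, and Insig1, a feedback inhibitor of the pathway, differed among the libraries of day 4 (53.4, 9.68 and 13.9 CPM).

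Further genes of the pathway outside the list, chosen after their values were seen, were Fdps, Mvd and Msmo1, which rose by 2.17, 1.40 and 0.92, and Abca1, the pump that exports cholesterol from cells, which was at 382, 339.7 and 394 CPM and then 165, 113 and 193 CPM (-1.25 ± 0.25; adjusted p = 0.021, edgeR). In Fdps 26.7% of the exon bases overlap another gene, so its count is uncertain. Of the 6 fits without 1 library, Fdps and Abca1 were called in 3, Mvd in 2 and Msmo1 in 0, and with fibroblast and collagen scaling none of the 4 was called. The number of list members called was 0 without day 4 replicate 2 or replicate 3, 2 without day 4 replicate 1, day 7 replicate 2 or day 7 replicate 3, 3 with size factors computed by relative log expression or with the trend with GC content removed, 1 with fibroblast and collagen scaling and 0 once the thymocyte score entered the fit. The list median was 0.83 with that scaling and 1.01 with the score, and it was 0.89 with day 7 replicate 1 as the lone library of its day and 0.90 in the k3 libraries alone. Hmgcs1, Idi1 and Cyp51 each had a promoter in the table. TCACNCCAC, the core of a sterol regulatory element, was found in that of Hmgcs1 and not in those of Idi1 and Cyp51. In Hmgcs1 it lay 137 bases before the start, in capitals below, and 1.05% of all promoters hold it in the same window. It is a match of letters and not shown to be bound.
Hmgcs1, chr13:119690101-119690350, plus strand: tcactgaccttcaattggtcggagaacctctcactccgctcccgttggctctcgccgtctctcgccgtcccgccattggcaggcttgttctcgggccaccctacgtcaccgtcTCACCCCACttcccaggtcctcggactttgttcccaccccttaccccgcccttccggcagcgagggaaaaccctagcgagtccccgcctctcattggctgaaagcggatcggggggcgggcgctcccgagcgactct

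**Figure D3:**
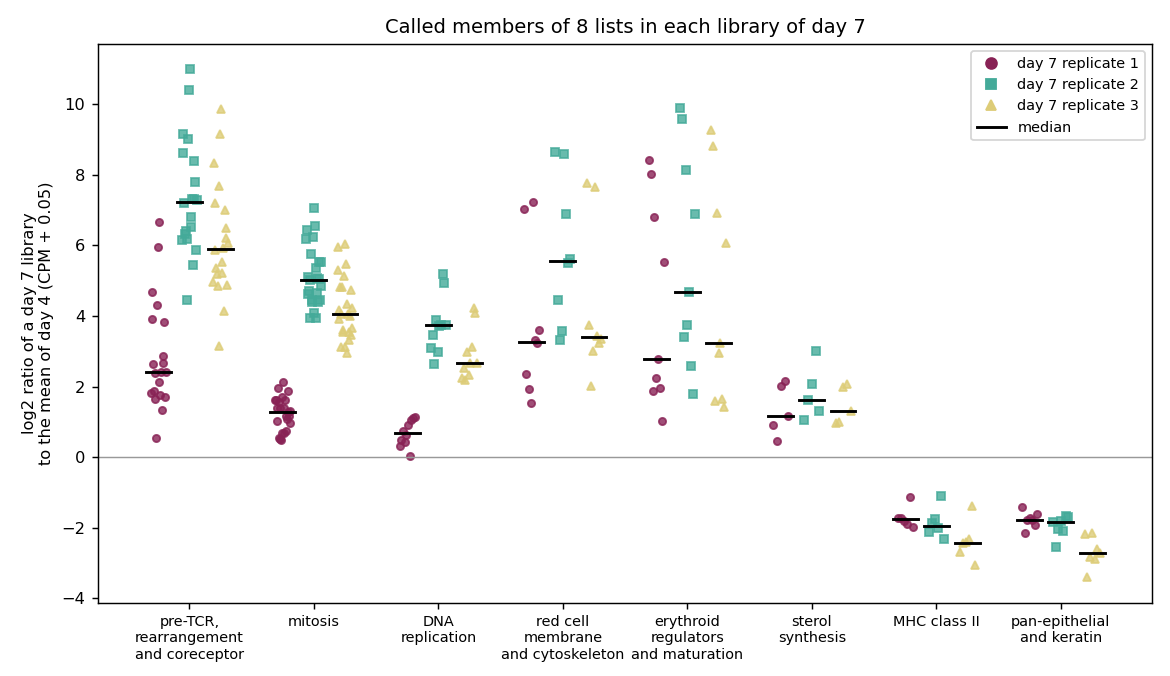
For the called members of 8 lists, the log2 ratio of each library of day 7 to the mean of day 4 is plotted on the scale of CPM + 0.05, with a bar at the median of each library. The bars of the thymocyte genes lie at 2.40, 7.24 and 5.91 for replicates 1, 2 and 3, those of sterol synthesis at 1.16, 1.61 and 1.31, and those of the pan-epithelial list at -1.77, -1.84 and -2.71. The members were chosen by their call in the same libraries, so the plot shows how evenly the 3 libraries carry each change and is not a test.

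Epithelial genes were lower at day 7. Of 20 genes shared by epithelia, keratins among them, 7 fell (1.13% of all genes tested fell) and none rose. The median was -1.47, and in 14 every library of day 7 was below every library of day 4 (14.0% of all genes tested). Krt5, the keratin of basal and medullary epithelium (ENSMUSG00000061527, GRCm38 chr15:101707070-101712891, minus strand), was at 1092, 1294 and 919 CPM at day 4 and 247, 189.9 and 104 CPM at day 7, a log2 fold change of -2.61 ± 0.47 (adjusted p = 0.013, edgeR). Krt17, a keratin of stressed epithelium, was at 463, 722 and 579 CPM and then 169, 143 and 82.8 CPM (-2.16 ± 0.50), and Krt18, of simple epithelium and cortical TECs, fell by 1.77 on the log2 scale. Cdh1, E-cadherin, which joins epithelial cells, was at 249.8, 204 and 204 CPM and then 66.6, 62.1 and 49.1 CPM (-1.89 ± 0.41; adjusted p = 0.027, edgeR). Also called were the splicing regulator Esrp1 (-2.19) and the transcription factor Elf3 (-2.02).

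The decline was not shared by every epithelial gene. Krt19 was at 345, 334 and 487 CPM and then 504, 292 and 469.7 CPM and Krt7 at 145, 118 and 186 CPM and then 127, 89.9 and 189 CPM, so that their days overlapped; both keratins also mark the mesothelium, the lining of the organ. Epcam, the adhesion molecule by which TECs are sorted, had 99.8, 24.4 and 25.5 CPM and then 40.1, 16.6 and 23 CPM, and replicate 1 of day 4 stood apart from the rest. Against steady state the Krt5 level of day 4 was high, since it was 159.7 to 524 CPM in the unirradiated libraries, and the 247, 189.9 and 104 CPM of day 7 reached from within that range to below it. The count of 7 became 0 without day 4 replicate 2, day 4 replicate 3 or day 7 replicate 2, 1 without day 7 replicate 3 and 1 with fibroblast and collagen scaling. The median of the list kept its direction in each of these, at -1.52, -1.59, -1.68, -1.44 and -1.64.

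Cortical TEC genes were lower by the medians but no single gene passed the threshold. All 13 members had a log2 fold change below 0, and the median was -1.22. In 10 every library of day 7 was below every library of day 4 (14.0% of all genes tested). Foxn1, the transcription factor that TECs require, was at 88.9, 91.8 and 56.9 CPM and then 29, 18.9 and 13.5 CPM (-1.95 ± 0.67; adjusted p = 0.13, edgeR). Psmb11, the catalytic subunit of the thymoproteasome found in cortical TECs, was at 269, 267 and 163 CPM and then 125, 74.9 and 58.9 CPM (-1.43 ± 1.10, adjusted p = 0.53). The lowest adjusted p was that of Pax1, a factor of the pharyngeal pouch from which the thymus forms, at 0.087, with 52.5, 37.4 and 20.4 CPM and then 11.6, 6.54 and 5.18 CPM. Ccl25, the chemokine that attracts precursors, and Dll4, the Notch ligand that commits them to the T lineage, had log2 fold changes of -1.22 ± 0.60 and -0.44 ± 0.44. Prss16, the thymus-specific serine protease, was at 1332, 386 and 229.7 CPM and then 399, 220.3 and 187 CPM, so that its days overlapped and replicate 1 of day 4 alone was high.

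Of 13 medullary TEC genes 1 fell (1.13% of all genes tested fell), and the median was -0.81. It was Ccl21a, a chemokine that draws selected thymocytes into the medulla, at 99.5, 152 and 96.2 CPM and then 36.8, 19.7 and 16.4 CPM (-2.25 ± 0.48; adjusted p = 0.025, edgeR). The call was lost without day 4 replicate 2 or replicate 3, without day 7 replicate 2 or replicate 3, and with fibroblast and collagen scaling. Aire, which drives expression of tissue antigens, was low on both days, at 3.87, 3.06 and 4.83 CPM and 1.37, 2.93 and 0.841 CPM against 21.3 ± 25.8 CPM at steady state (SD, n = 4), and Fezf2, which has the same role for other antigens, was at 21.8, 12.3 and 13.8 CPM and 7.73, 6.49 and 4.61 CPM against 36.6 ± 38.4 CPM. Neither differed between the days past the threshold (adjusted p = 0.49 and 0.34, edgeR). The lists of mimetic TECs, which express programmes of other tissues, held no call: medians were -0.77 for tuft, -0.67 for skin, microfold and secretory, -0.58 for neural and ciliated, and -0.26 for muscle genes.

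MHC class II genes fell along with the keratins. TECs carry these molecules throughout, and B cells, dendritic cells and macrophages do so as well. Of 12 genes 6 fell (1.13% of all genes tested fell), none rose, and the median of -1.71 was the lowest of the 44 lists. H2-Aa, the alpha chain of I-A, was at 714, 889.7 and 729.5 CPM and then 235, 178 and 122 CPM (-2.13 ± 0.53; adjusted p = 0.044, edgeR), and Cd74, the invariant chain, at 2347, 2783 and 2089 CPM and then 646, 599 and 480.4 CPM (-2.07 ± 0.52, adjusted p = 0.045). H2-Ab1, H2-Eb1, H2-DMb1 and H2-DMb2 fell with log2 fold changes of -1.98, -1.96, -1.21 and -2.39. Ciita, the transactivator of the whole group, was at 31.9, 31.5 and 18.8 CPM and then 8.39, 13 and 8.24 CPM without passing the threshold (-1.47 ± 0.61, adjusted p = 0.22). All 6 calls had an adjusted p of at least 0.035, and 0 were made without day 4 replicate 2, day 4 replicate 3, day 7 replicate 2 or day 7 replicate 3, 2 without day 4 replicate 1, 3 without day 7 replicate 1 and 0 with fibroblast and collagen scaling, with tag family as a covariate or on genes with at least 10 counts in every library.

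Among growth factors of thymocytes and epithelium, 1 of 17 fell (1.13% of all genes tested fell). It was Il7, the survival factor of early thymocytes, made by TECs and fibroblasts (ENSMUSG00000040329, GRCm38 chr3:7569994-7613760, minus strand), which was at 115, 138 and 93.7 CPM at day 4 and 38.1, 29.8 and 21 CPM at day 7 (-1.96 ± 0.49; adjusted p = 0.045, edgeR), with 40.1 ± 27.8 CPM at steady state (SD, n = 4). Of the 6 fits without 1 library it was called in 1. Il7 was among 6 of the 17 genes in which every library of day 7 was below every library of day 4 (14.0% of all genes tested). Its values of day 7 were close to the unirradiated level. Fgf7 and Fgf10, fibroblast factors for epithelium, were at -0.27 and -0.52 on the log2 scale, Bmp4 at 0.08, Kitl, the ligand of the Kit receptor on precursors, at -0.62, and Cxcl12, a chemokine of precursors, at -0.88 with 1259, 1171 and 862 CPM and then 775, 430.2 and 586 CPM (adjusted p = 0.097). Targets that report FGF, BMP and Wnt signalling held no call among 13, with a median of 0.06.

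The other stromal compartments held few calls, where 2.77% of all genes tested were called higher and 1.13% lower. Of 16 fibroblast genes 1 rose, Thy1, at 3.68, 6.62 and 4.05 CPM and then 7.65, 36.8 and 20.5 CPM (2.17 ± 0.46; adjusted p = 0.025, edgeR), a surface protein that thymocytes also carry in abundance and whose libraries rank as the thymocyte genes do. Pdgfra, the receptor that defines the lineage, was at 758, 736 and 663 CPM and then 751, 616 and 662 CPM, a log2 fold change of -0.09 ± 0.24. Dpp4, Smpd3 and Sema3c, of fibroblasts of the capsule, had 0.76 ± 0.39, 0.88 ± 0.44 and 0.85 ± 0.33 without overlap between the days and without passing the threshold. In 4 of the 16 genes every library of day 7 was above every library of day 4 (12.2% of all genes tested). None of 17 collagen, 13 basement membrane and 22 matrix remodelling genes was called, with medians of 0.17, -0.02 and -0.07. With scaling on the fibroblast and collagen genes the medians were 0.20 for fibroblast genes, -0.01 for collagen, -0.22 for basement membrane and -0.29 for remodelling genes, so the sign of the collagen median depended on the scaling. The call of Thy1 was lost without any 1 library except day 7 replicate 1.

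Endothelial genes were lower in most members without a call. Of 21 genes 18 had a log2 fold change below 0, and the median was -0.41. In 10 every library of day 7 was below every library of day 4 (14.0% of all genes tested). Tie1, a receptor of vessel growth, was at 176, 175 and 232 CPM and then 103, 145 and 100.4 CPM (-0.74 ± 0.24; adjusted p = 0.1, edgeR), while Pecam1, the junction protein CD31, was at 320.4, 324 and 391 CPM and then 199, 374 and 243 CPM and overlapped. Among 12 pericyte and smooth muscle genes 1 fell, Kcnj8, a potassium channel of pericytes, at 100.5, 107 and 102 CPM and then 60.7, 41.3 and 39 CPM (-1.13 ± 0.28; adjusted p = 0.043, called in 1 of the 6 fits without 1 library). Rgs5, Cspg4 and Abcc9 of pericytes did not overlap either, at -1.16, -0.88 and -0.70, and were not called. In 5 of the 12 genes every library of day 7 was below every library of day 4 (14.0% of all genes tested). The contractile genes Acta2 and Myh11 were at 0.17 and 0.19. Mesothelial (median 0.04), Schwann cell (-0.70) and adipocyte (-0.36) lists held no call; the mesothelial median was -0.22 with fibroblast and collagen scaling.

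In the response programmes that irradiation can set in motion 2 genes fell and none rose, where 1.13% of all genes tested fell and 2.77% rose. No interferon-stimulated gene of 20 was called. The median was -0.49, and in 11 every library of day 7 was below day 4 (14.0% of all genes tested). Among the 11 was Irf7, the amplifier of the response, at 293, 297 and 287 CPM and then 188, 118 and 176 CPM (-0.86 ± 0.33; adjusted p = 0.18, edgeR). Rsad2, the antiviral enzyme viperin, was at 50.1, 38.5 and 68.2 CPM and then 77.1, 164 and 106 CPM and was not called. It was the 1 gene of the 20 that was higher without overlap (12.2% of all genes tested). Of 19 targets of p53, the factor that answers DNA damage, none was called either, and the median was -0.41. Cdkn1a, the cell cycle inhibitor p21, was at 363, 574 and 582 CPM and then 397, 216 and 209 CPM (adjusted p = 0.17), and Sesn2, a stress sensor, at 81.3, 69 and 75.3 CPM and then 42.5, 31.4 and 36 CPM (adjusted p = 0.056) against 33.1 ± 7.85 CPM at steady state (SD, n = 4).

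Acute-phase and inflammatory genes held no call among 17, with a median of -0.92. Lcn2, an iron-binding protein of inflamed epithelium, was at 57.6, 82 and 57.3 CPM and then 17.3, 9.98 and 46.3 CPM, and Saa3, an acute-phase protein, at 93.1, 116 and 62.9 CPM and then 26.9, 8.62 and 265 CPM, so that replicate 3 was the highest of day 7 in both. The dissociation stress list, genes that enzymatic digestion itself can induce, contained 1 of 14 that fell (1.13% of all genes tested fell). It was Fos, at 1779, 2260.4 and 1119 CPM and then 419, 703 and 532 CPM (-1.64 ± 0.42; adjusted p = 0.045, edgeR, called in 0 of the 6 fits without 1 library). Of 8 genes of the oxidative stress response 1 fell (1.13% of all genes tested fell). This was Nqo1, a quinone reductase, at 121, 127 and 92.4 CPM and then 33.2, 26.4 and 22.7 CPM (-2.05 ± 0.41; adjusted p = 0.019, edgeR), with 35.6 ± 16.1 CPM at steady state (SD, n = 4). It was called in 2 of the 6 fits without 1 library, those without day 4 replicate 1 and without day 7 replicate 1. The 9 mitochondrial transcripts had a median of 1.25 and no call, and summed to 4778, 5130.5 and 4131 CPM and then 16919, 6647 and 7584 CPM, with replicate 1 of day 7 far above the rest.

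Other immune lineages held few calls, where 2.77% of all genes tested were called higher. Of 14 macrophage genes 1 rose, Timd4, a receptor for dying cells, from under 0.1 CPM to 0.246, 1.15 and 0.352 CPM (3.51 ± 0.87; adjusted p = 0.042, edgeR), and Csf1r, the growth factor receptor of macrophages, was at 23, 20.7 and 23.4 CPM and then 19.4, 23.3 and 33 CPM. Of 7 genes of NK and innate lymphoid cells 1 rose, Gzma, granzyme A, at 0.71, 1.46 and 2.35 CPM and then 2.87, 43.2 and 21.2 CPM (3.86 ± 0.81; adjusted p = 0.023), in the order of libraries seen for thymocyte genes. Both calls were made in 1 of the 6 fits without 1 library, that without day 7 replicate 1. Dendritic cell (9 genes, median 1.67), neutrophil (9 genes, 0.06), B lineage (11 genes, -0.11), megakaryocyte (6 genes, -0.02), parathyroid (3 genes, -0.92) and sex-linked (4 genes, 0.34) lists held no call.

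**Figure D4:**
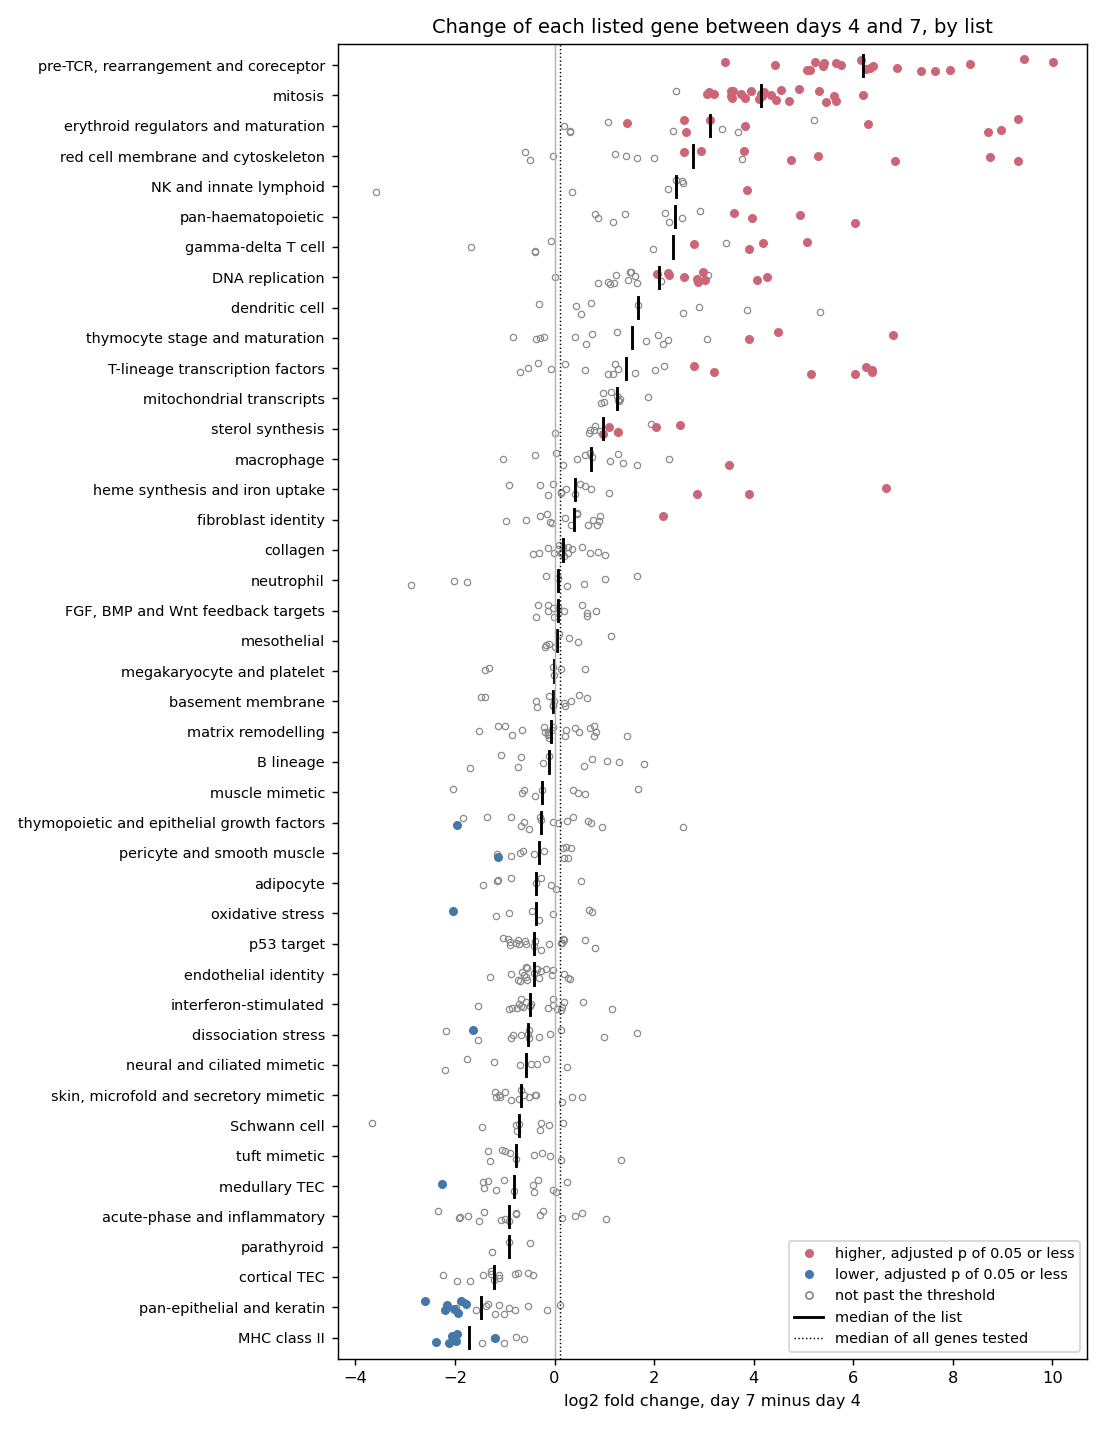
The log2 fold change of every listed gene tested, day 7 minus day 4, is plotted by list, ordered by the median (black bar), with genes called higher in red, called lower in blue and not called as open circles. The dotted line is the median of all genes tested, 0.11. The pre-T cell receptor, mitosis, erythroid regulator and red cell membrane lists lie at the top with medians from 2.77 to 6.20, the collagen, basement membrane and matrix remodelling lists lie near the dotted line, and the cortical TEC, pan-epithelial and MHC class II lists lie at the bottom, at -1.22 to -1.71.

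Outside the lists, 10 genes with the largest rises at a mean of at least 5 CPM had log2 fold changes of 6.59 to 8.85. Jakmip1, which links microtubules to the Jak kinase Tyk2, went from 0.129, 0.0702 and 0.0185 CPM to 1.74, 60.1 and 23.2 CPM (8.85 ± 1.42; adjusted p = 0.0095, edgeR). However, 48.2% of its exon bases overlap other entries of the annotation, among them a second one named Jakmip1. Arpp21, an RNA-binding protein of thymocytes and neurons, rose by 7.55, Sla, an adaptor that tunes T cell receptor levels, by 7.08, Cd6, a surface regulator of T cells, by 6.96, Tespa1, required for thymocyte selection, by 6.83, Traf3ip3 by 7.38 and Sh2d1a, the adaptor SAP, by 6.67. In Sh2d1a 26.6% of the exon bases overlap another gene. Tdrd5 and Spo11 are better known from germ cells. Tdrd5 was at 0, 0.0527 and 0.037 CPM and then 1.23, 20.5 and 11.1 CPM (8.05 ± 1.13), and Spo11, which makes the breaks of meiotic recombination, at 0.0645, 0.228 and 0.0926 CPM and then 0.656, 37.8 and 3.17 CPM (6.59 ± 1.47). Dgkeos rose by 6.71. All 10 had the lowest value of day 7 in replicate 1 and the highest in replicate 2. None of them was called without day 4 replicate 2 or without replicate 3.

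The 12 genes with the largest falls outside the lists had log2 fold changes of -3.97 to -2.47. Ces1b, a carboxylesterase, was at 45.3, 48.3 and 36.9 CPM and then 3.45, 3.4 and 1.44 CPM (-3.97 ± 0.94; adjusted p = 0.035, edgeR). It was called in 0 of the 6 fits without 1 library. At steady state it was at 3.72 ± 0.858 CPM (SD, n = 4), so that day 7 was near the steady-state level. Zfp750 and Asprv1, a factor and a protease of epidermal differentiation, fell to 3.47, 4.77 and 2.93 CPM from 23.2, 27.7 and 20.4 CPM and to 10.5, 8.85 and 7.02 CPM from 29.9, 56.7 and 69.8 CPM. Krt16, a keratin of activated epidermis, and Il1rn, the interleukin 1 receptor antagonist, had log2 fold changes of -2.54 and -2.53. Fcgbp, a mucus protein, was at 384, 462 and 606 CPM and then 93.6, 72.4 and 70.4 CPM (-2.62 ± 0.55), with 193 to 1109.6 CPM over the steady-state libraries. Grp, gastrin-releasing peptide (-2.89), Cyp2g1, an olfactory cytochrome P450 (-2.84), Ubd, a ubiquitin-like protein of medullary TECs (-2.61), Skint2 (-2.58), Aoc1, a diamine oxidase (-2.58), and the potassium channel Kcnj15 (-2.47) completed the 12. In all 12 the 3 libraries of day 7 were below all of day 4, as the rule requires. No fall in the whole comparison was called without day 4 replicate 2 or without replicate 3.

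Set against the unirradiated libraries, day 7 differed in 1 gene by edgeR (0.00500% of those tested). Gm32051, a predicted gene, was at 0.0645, 0.0176 and 0.111 CPM at day 4, 3.08, 13.4 and 7.43 CPM at day 7 and 0.325 ± 0.119 CPM at steady state (SD, n = 4), a log2 fold change over steady state of 4.57 (adjusted p = 0.035). At an unadjusted p under 0.05 there were 1103 genes higher and 1588 lower, and DESeq2 called 1081, so the count of 1 does not show that the levels were alike. Without day 7 replicate 1 it was 622 and without day 7 replicate 2 or replicate 3 it was 0. This comparison and that of day 7 with day 4 share the libraries of day 7. Relative to steady state, day 7 was above for the summed sterol list in all 3 libraries, below for the erythroid list in all 3, and on both sides for the thymocyte list.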

How the data were processed

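Bulk RNA-seq counts of 13 libraries of CD45- thymic cells were used, 3 each from days 4 and 7 after TBI for the comparison. The authors trimmed reads with Trimmomatic (0.38), aligned them with STAR (2.7.0e) to GRCm38.p5 (mm10) and counted them per gene with featureCounts (1.6.3), per the submitters' processing notes; the deposited counts are whole numbers without normalization. The strand setting of the counting is not given in the sources used here, and reads shared by overlapping or near-identical genes may have been dropped or split.

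Days were taken from the sample labels and replicate numbers from the labels and column names; the steady-state columns carry a day and a replicate number within it that do not match the numbers of the labels, and were used as a group. Gene symbols came from GENCODE M21 (53274 of 53379 identifiers). Exon overlaps were computed on the same release, which is later than the one on which the paper counted reads. Genes were filtered with filterByExpr (count minimum 10), counts were scaled by TMM, and edgeR's quasi-likelihood F-test (4.0.16, in R 4.3.3) was fitted to all 13 libraries, with the contrast of day 7 minus day 4, Benjamini-Hochberg adjustment over 19984 genes and a threshold of 0.05. SE is the log2 fold change divided by the square root of F. Gene fold changes in the text without a p passed this threshold where a gene is said to have risen or fallen. PCR reads without molecular identifiers are not independent molecules, so floors cover counting error only; total counts of 15721866 to 52056896 for the 6 libraries set the precision. A gene with 3 counts or fewer was taken as at the floor. The scripts were tested on simulated data.

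The members and the 44 gene lists were chosen with earlier results of these data known. Named were the first 4 genes of each list, the members with the largest called rise and fall, further members with their values, and the genes outside the lists with the largest 12 called rises and 12 falls (mean of at least 5 CPM, no overlap between days, no receptor segments or predicted genes); some genes that these rules name are not reported here. Motifs were searched in the RefSeq promoters. In all, 19 alternatives were run, 3 of them added after seeing the data: the k3 libraries alone, the fit without day 4 replicate 1 and day 7 replicate 2, and the removal of a trend with GC content (lowess). DESeq2 (1.42.0) was an alternative. Gene length, the other deposited column, was not used.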

Additional observations from a re-analysis of the deposited data

Results flagged for a closer look

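Over the 43 gene lists, the summed level in the 4 steady-state libraries held 1 library far from the others. For the dissociation stress list the sums were 4303, 4783, 5298 and 12427 CPM, and the gap of the highest library to the next was 0.878 of the whole range, above Dixon's 95% critical value for 4 samples. Chance flags about 1 in 20 groups, so 1 of 43 is within what chance gives. At days 4 and 7 the same list summed to 7846, 5149 and 3013 CPM and 2689.9, 3191 and 3244 CPM; groups of 3 libraries were not examined in this way. What sets the 1 library apart was not tested.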

How the results depend on the processing

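The number of genes called between days 4 and 7 ranged from 15 to 1507 over the 6 fits that left out 1 library, the number of listed genes called from 11 to 159 (117 with all libraries), and the number called between day 7 and steady state from 0 to 622 (1 with all libraries). With all libraries, 779 genes were called between days 4 and 7; the count was 326 with scaling on fibroblast and collagen genes (320 higher and 6 lower), 1265 without a filter, 355 with at least 10 counts in every library, 394 with only days 4 and 7 in the fit (94 higher and 300 lower), 303 with a replicate block, 50 with the thymocyte score as a covariate, 17 with day 7 replicate 1 as the lone library of its day, assumed to vary like the other groups, 0 in the k3 libraries alone, 19 without day 4 replicate 1 and day 7 replicate 2, and 1919 by DESeq2. For listed genes the same settings gave 72, 148, 73, 67, 60, 15, 12, 0, 12 and 183. For day 7 against steady state, 0 genes were called with fibroblast and collagen scaling, with at least 10 counts in every library, with tag family as a covariate, with day 7 replicate 1 alone, in the k3 libraries alone and without the pair of libraries, 627 without a filter, 388 with the thymocyte score and 1081 by DESeq2. Relative log expression (840), tag family as a covariate (854) and removal of the GC trend (928) left the count between the days within 1.5 times. The cause of these differences was not tested. Settings that leave out libraries or genes fit less data, and their counts lay both below and above 779. The replicate number as a block was fitted to days 4 and 7 only, where 303 genes were called (145 higher and 158 lower) against 394 in the same libraries without it, with 1 mitosis gene and 0 DNA replication genes called in both; deviations of same-numbered libraries of days 4 and 7 correlated at 0.19, 0.20 and -0.16, so the numbers were not taken to pair the libraries. Log2 fold changes of 37 named genes that had risen turned negative with the thymocyte score in the fit, which is made from the 20 genes of the pre-T cell receptor list: Ptcra -0.52, Dntt -0.038, Cd3e -1.06, Cd3d -0.32, Cd3g -1.29, Cd247 -2.26, Lck -0.89, Zap70 -1.11, Lat -0.78, Lcp2 -1.34, Themis -0.41, Tcf7 -0.37, Lef1 -0.70, Ikzf1 -2.13, Ikzf3 -2.64, Cd69 -1.60, Trdc -1.17, Tcrg-C2 -2.93, Tcrg-C4 -3.63, Ptprc -0.97, Coro1a -1.30, Was -3.65, Cd48 -2.98, Epb41 -0.17, Tfrc -1.66, Mcm2 -0.73, Mcm5 -0.70, Rrm2 -0.36, Uhrf1 -0.31, Mki67 -0.36, Kif11 -0.13, Cenpe -0.19, Cenpf -0.73, Thy1 -0.51, Gzma -1.27, Traf3ip3 -0.61 and Spo11 -1.94. With day 7 replicate 1 alone, Tcrg-C4 -0.48, Was -0.19 and Cd48 -0.20 did so. All 20 genes of the score separate the days, so the fit with the score cannot fully tell it from the day. The genes from Ptcra to Themis in the list of reversals are themselves members of the score. Depth limits the low genes most in day 4 replicate 1, where 3 counts correspond to 0.194 CPM.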

Other observations

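Several genes split the 6 libraries in a way that the day does not. Over all genes tested, day 4 replicate 1 correlated at 0.982 with day 7 replicate 1 (Pearson, log2 scale). Its correlations with day 4 replicates 2 and 3 were 0.972 and 0.971. Day 7 replicate 1 correlated at 0.946 and 0.977 with replicates 2 and 3 of its day. Day 4 replicates 2 and 3 correlated at 0.993, and day 7 replicates 2 and 3 at 0.977. The genes named here were chosen after their values were seen. Cd248, a surface protein of fibroblasts, was at 1605, 320.4 and 259 CPM at day 4 and 2043, 452 and 1621 CPM at day 7. Lox, which crosslinks collagen, was at 641, 127 and 105 CPM and 609, 204 and 746 CPM, Timp2, an inhibitor of matrix proteases, at 809.8, 236 and 176 CPM and 1026, 255 and 848 CPM, and Lrrn4, of mesothelium, at 648, 126 and 178 CPM and 857, 228 and 1014 CPM. In all 4 genes day 4 replicate 1 and day 7 replicates 1 and 3 were high, and the other 3 libraries were low. Prss16, Egr1 and Dusp1 were high in day 4 replicate 1 at 1332, 1802 and 545 CPM against at most 386, 400.2 and 88.2 CPM in the other libraries of that day.

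Parathyroid and adipose genes differed between libraries of 1 day. Pth, parathyroid hormone, was at 126, 105 and 518 CPM at day 4 and 228, 87.9 and 79.1 CPM at day 7, and Chga, chromogranin A of endocrine cells, at 179, 132 and 595 CPM and 274, 154 and 133 CPM, both highest in day 4 replicate 3. Hp, haptoglobin, was at 213, 242 and 118 CPM and 151, 25.2 and 309.8 CPM and Cfd, the adipocyte protease adipsin, at 540.5, 715 and 329.5 CPM and 230.3, 71.2 and 421 CPM, both lowest in day 7 replicate 2.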
